A study of Sus scrofa with 10 samples.

Results

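A family of 8 immediate early genes was followed across the aortic valve leaflets of swine with inherited high blood cholesterol and of wild-type swine: FOS, JUN, ATF3, EGR1, NR4A3, NR4A1, MYC and IER3. They were chosen by name as a family, with earlier results of these arrays known, and each was read from probe sets that the array annotation ties to that 1 symbol. A probe set is the group of short probes that reads 1 transcript. Of the 8 genes, 7 had such a probe set, 10 probe sets in all, among 6765 genes and 23999 probe sets on the array. NR4A1 was not analysed here. The brightest probe set stood for a gene, and the second of NR4A3 and the other two of EGR1 are given beside it.

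Total RNA of female swine was read on Affymetrix GeneChip Porcine Genome arrays, 10 in all. There were 3 arrays of juvenile wild type (WT, labelled Rapacz Wisconsin Miniature Swine, wild type, RFH -/-), 3 of juvenile Rapacz Familial Hypercholesterolemic (RFH) swine and 4 of adult RFH swine. Both juvenile groups were sampled at 3 months and the adults at 2 years. All groups ate standard chow, were stunned and exsanguinated, and had their leaflets placed in RNAlater within an hour of death. The labels give no adult WT group among these samples, so in the adult against juvenile RFH comparison age and the course of the disease cannot be told apart. WT and RFH juveniles differ in the breed label as well as in genotype. Whether the arrays of a group stand for different animals is not in the labels, so the p-values measure the spread between the samples as labelled.

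Immediate early genes are transcribed within minutes of a stimulus such as a growth factor, stretch, wounding or stress, because the factors that start them are already in the cell. Most encode transcription factors that in turn set a later wave of genes. FOS and JUN proteins pair through leucine zippers to form AP-1, ATF3 pairs with JUN family members, EGR1 binds DNA through zinc fingers, NR4A3 is an orphan nuclear receptor, and MYC pairs with MAX to drive growth genes. IER3 is not a transcription factor but a small membrane-associated protein that bears on cell survival, so the family name holds for 6 of the 7 genes measured.

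Most valve markers were bright in the leaflets. The interstitial and fibroblast list had 10 of 12 genes measured, among them VIM, DCN, LUM and MGP. Its mean log2 level was 12.95 to 13.02 in the WT juveniles, 12.87 to 12.95 in the RFH juveniles and 12.30 to 12.70 in the adults. COL1A2 and COL3A1 were dimmer, with group means of 8.58 to 9.42 and of 6.66 to 7.34. Between adult and juvenile RFH arrays 2 of the 10 fell, POSTN (-1.06) and COL3A1 (-0.68), and 0 rose (limma, adjusted p under 0.05). Over all genes 7.85% fell. One array stood apart: juvenile RFH replicate 2 averaged 8.81 over the 10 cardiac muscle markers measured, while replicates 1 and 3 averaged 5.37 and 5.76 and 5.20 to 5.62 in the WT and adult arrays. The macrophage and monocyte list (8 of 11 genes measured) lay at 8.76 to 8.85 in the WT juveniles, at 9.02 to 9.11 in the RFH juveniles and at 9.49 to 10.03 in the adults. Of its 8 genes 4 rose and 0 fell between adult and juvenile RFH arrays (limma, adjusted p under 0.05), where 11.4% of all genes rose. The means of other lists also parted adult from juvenile RFH arrays, but not through all their genes. Adipocyte markers lay at 6.67 to 7.47 against 6.03 to 6.11 (2 of 5 rose). FABP4 (3.83) and LPL (1.17) rose, with ADIPOQ, LEP and ADIPOR2 at 0.12, -0.13 and -0.02. Neutrophil markers lay at 4.98 to 6.67 against 4.79 to 4.96 (1 of 3 rose). S100A9 (2.74) rose, with S100A8 and S100A12 at 0.45 and 0.41, not called. Red cell markers lay at 6.28 to 7.24 against 7.56 to 8.48 (2 of 3 fell). Endothelial markers overlapped, at 8.80 to 9.70 against 8.75 to 9.08 (2 of 7 rose, 1 fell). Smooth muscle markers also overlapped, at 9.41 to 10.33 against 10.07 to 10.39 (1 of 5 fell). The red cell and neutrophil list means also lay higher in each juvenile RFH array than in the WT juveniles (6.83 to 7.34 and 4.46 to 4.72). So did those of the T and B cell list (5.35 to 5.48 against 5.09 to 5.29) and the cardiac muscle list (5.37 to 8.81 against 5.20 to 5.29). No gene of any marker list was called between the juvenile groups. Of the red cell genes, AHSP (6.29 against 4.64) and ALAS2 (8.15 against 6.54) had higher means in juvenile RFH. HBB, the brightest of that list, went the other way (9.65 against 9.87). The poly-A spike-in controls lay 0.80 higher in adult than in juvenile RFH arrays (7.12 ± 0.16, SD, n = 4, against 6.32 ± 0.02, SD, n = 3). The two-sided exact permutation p was 0.0286, which is the minimum for groups of 4 and 3. The same controls lay 0.22 lower in juvenile RFH than in juvenile WT arrays (6.54 ± 0.06, SD, n = 3), with no overlap and a two-sided exact permutation p of 0.1, the minimum for groups of 3 and 3. The part of these shifts in the values below was not tested. In whole leaflets, more cells that carry a transcript and more transcript per cell cannot be told apart.

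The question of the first comparison was how adult RFH leaflets differ from juvenile RFH leaflets. All 7 genes had a higher mean in adult RFH arrays, by 0.41 to 4.94 on the log2 scale with a median of 2.49, against a median of 0.02 over all 6765 genes. In 6 of the 7, every adult array lay above every juvenile RFH array, and JUN was the exception. Over all genes such a separation upward occurred in 16.6% of cases. These genes were picked with this comparison in view, so its values are given as a description, with no test. Log2 differences carry the standard error (SE) of a limma fit to all 10 arrays.

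**Figure D1:**
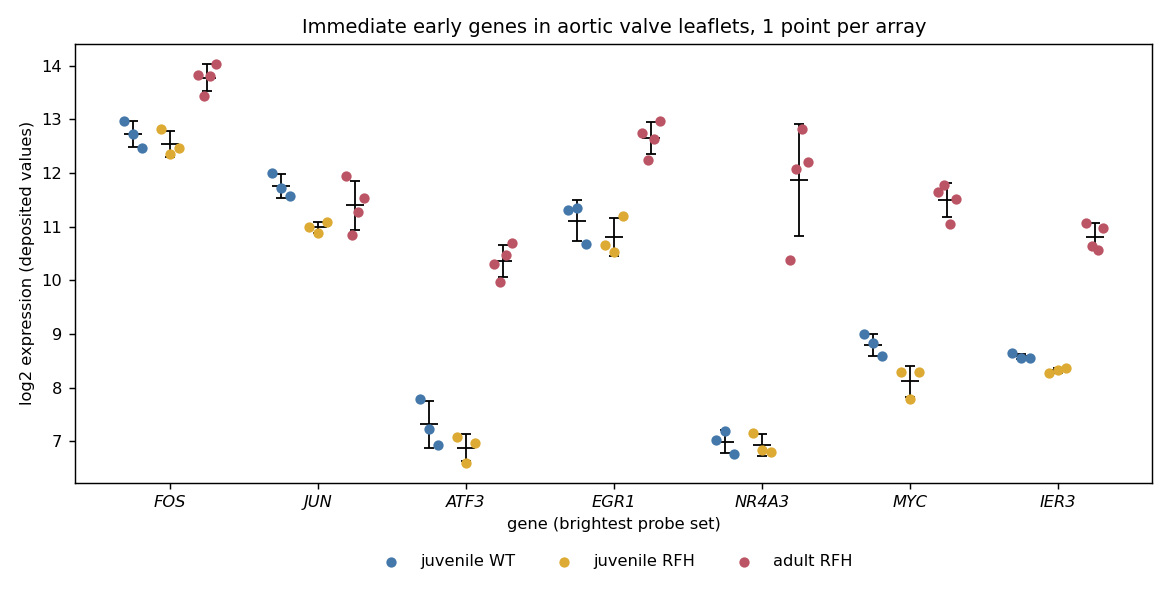
Log2 expression (vertical axis, deposited values) of the brightest probe set of each of the 7 genes (horizontal axis), 1 point per array, coloured by group; the bar and whiskers are the mean ± SD over 3 juvenile WT, 3 juvenile RFH or 4 adult RFH arrays. The adult points lie above both juvenile groups for FOS, ATF3, EGR1, NR4A3, MYC and IER3, while the adult JUN points, 10.85 to 11.94, overlap both.

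The AP-1 pair split. FOS, the AP-1 partner that turns over fastest, read 12.96, 12.73 and 12.47 in juvenile WT replicates 1 to 3, 12.81, 12.35 and 12.47 in juvenile RFH replicates 1 to 3, and 13.83, 13.44, 13.80 and 14.03 in adult RFH replicates 1 to 4. The juvenile groups overlapped, and the lowest adult array was 0.63 above the highest juvenile RFH array. The adult minus juvenile RFH difference of FOS was 1.23 ± 0.17 (SE), 2.35-fold. FOS was already near the top of the array's scale in juveniles, its mean over all arrays exceeding that of 99.2% of probe sets, and how far saturation shortens such a difference was not tested.

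JUN, the AP-1 subunit that can also pair with itself, read 11.99, 11.72 and 11.56 in WT juveniles, 10.99, 10.88 and 11.09 in RFH juveniles, and 11.94, 10.85, 11.27 and 11.53 in RFH adults. The low group was therefore juvenile RFH, every array of it under every WT array, while adult RFH arrays spanned the range from the one to the other. Adult replicate 2 lay below all 3 juvenile RFH arrays and adult replicate 1 above 2 of the 3 WT arrays. The adult minus juvenile RFH difference was 0.41 ± 0.21 (SE), which was exceeded by 976 of the 6765 genes, and the adult mean, 11.40 ± 0.46 (SD, n = 4), was 0.36 under the WT mean of 11.76 ± 0.22 (SD, n = 3). JUN was the only one of the 7 genes whose adult mean was below its WT mean.

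ATF3, a stress-induced factor that represses or activates depending on its partner, read 7.79, 7.22 and 6.93 in WT juveniles, 7.07, 6.60 and 6.97 in RFH juveniles, and 10.30, 9.97, 10.46 and 10.69 in RFH adults. The juvenile groups overlapped, and a gap of 2.90 parted the lowest adult from the highest juvenile RFH array. The difference was 3.47 ± 0.22 (SE), 11.1-fold. The juvenile RFH mean of ATF3, 6.88, lay just under the array medians of 6.96 to 7.03, so the fold depends on the background left by the submitters' processing.

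EGR1, which shear stress and injury switch on in vascular cells, was read by 3 probe sets. The brightest gave 11.31, 11.34 and 10.67 in WT juveniles, 10.66, 10.53 and 11.20 in RFH juveniles, and 12.74, 12.24, 12.64 and 12.96 in RFH adults, a difference of 1.85 ± 0.22 (SE) between the RFH groups, 3.60-fold. Adult arrays were above all juvenile arrays by all 3 probe sets, but by unequal amounts. The second probe set gave 8.69, 7.88 and 8.22 in juvenile RFH against 11.46, 10.36, 10.27 and 11.41 in adult RFH arrays, a difference of 2.61 ± 0.31 (SE). The third gave 9.18, 9.15 and 9.69 against 10.09, 9.92, 10.13 and 10.05, a difference of 0.71 ± 0.15 (SE). The size of the EGR1 difference thus depended on the probe set, from 1.64-fold to 6.12-fold.

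NR4A3 (also called NOR-1), a nuclear receptor with no known natural ligand, had the largest difference of the 7. Its brightest probe set read 7.02, 7.19 and 6.77 in WT juveniles, 7.16, 6.83 and 6.79 in RFH juveniles, and 10.37, 12.07, 12.81 and 12.21 in RFH adults. The juvenile groups overlapped almost wholly, and adult replicate 1 was far under the other adults yet 3.22 above the highest juvenile RFH array. The difference was 4.94 ± 0.44 (SE), 30.7-fold, which 1 other gene of the 6765 exceeded. The dimmer probe set gave 5.28, 4.82 and 4.81 in juvenile RFH and 7.62, 9.05, 9.07 and 9.16 in adult RFH arrays, a difference of 3.76 ± 0.33 (SE), again with adult replicate 1 lowest. Juvenile levels of NR4A3 lay near the array medians of 6.96 to 7.03 with the brightest probe set, some above and some below, and well under them with the dimmer one, so both folds depend on background.

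NR4A2, the family relative that the array does measure, is no member and was singled out after its values were seen. It read 9.33, 8.88 and 8.53 in WT juveniles, 8.80, 8.14 and 9.12 in RFH juveniles, and 11.09, 11.79, 12.89 and 12.70 in RFH adults. Adults were higher by 3.43 ± 0.41 (SE, limma adjusted p = 0.000515), and adult replicate 1 was lowest and replicate 3 highest, as for the brightest NR4A3 probe set.

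MYC, which controls growth, ribosome production and the cell cycle, read 8.99, 8.82 and 8.58 in WT juveniles, 8.29, 7.78 and 8.28 in RFH juveniles, and 11.64, 11.78, 11.05 and 11.51 in RFH adults. The 3 groups did not overlap, with juvenile RFH lowest, WT between and adults highest. The difference between adult and juvenile RFH was 3.37 ± 0.19 (SE), 10.4-fold, and adults exceeded juvenile WT by 2.70 in the means. IER3 read 8.64, 8.55 and 8.55 in WT juveniles, 8.27, 8.32 and 8.37 in RFH juveniles, and 11.07, 10.64, 10.56 and 10.97 in RFH adults. IER3 had the tightest juvenile values of the 7 genes (SD 0.05 in each juvenile group), the same order of groups as MYC with no overlap, and a difference of 2.49 ± 0.13 (SE), 5.62-fold, between the RFH groups.

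**Figure D2:**
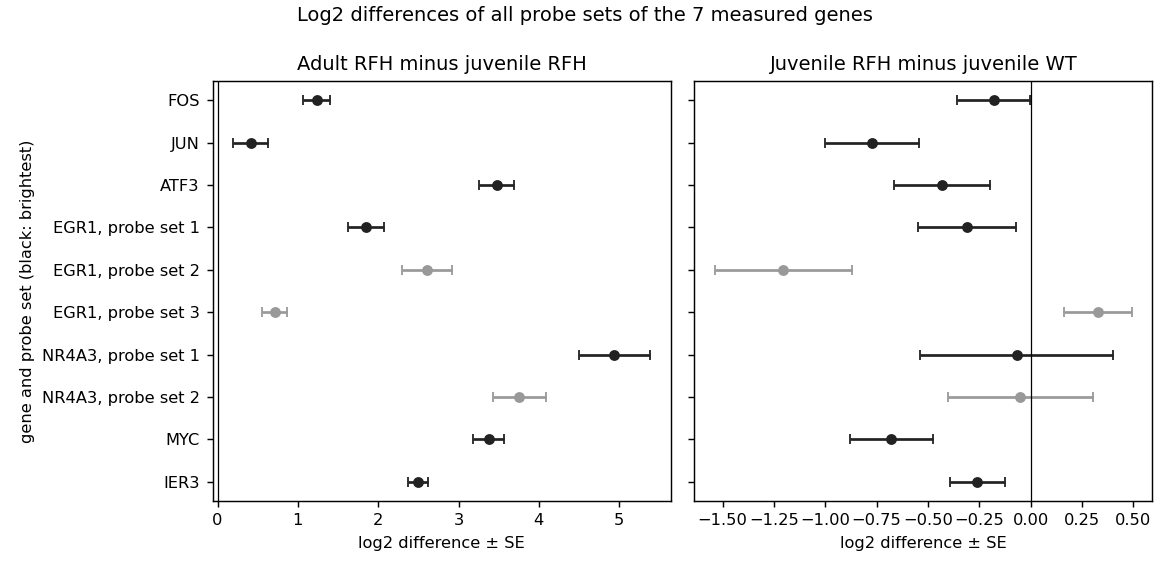
Log2 difference ± SE (horizontal axes) of all 10 probe sets (vertical axis) for adult RFH minus juvenile RFH (left) and juvenile RFH minus juvenile WT (right); black marks the brightest probe set of a gene and grey the others, and the panels have different scales. All 10 probe sets lie right of 0 on the left, from 0.41 to 4.94, and 9 of the 10 lie left of 0 on the right.

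The second comparison asked how juvenile RFH leaflets differ from juvenile WT leaflets. It shares the juvenile RFH arrays with the first, so a low juvenile RFH value moves both, in opposite directions. None of the 7 genes passed an adjusted p under 0.05, where 0.133% of all genes did (0.0887% upward), and 2 of them, JUN and MYC, had an unadjusted p under 0.05 in limma, both lower in juvenile RFH. Over all genes 15.1% had such a p, and 4.02% had one with a lower juvenile RFH mean. All 7 means were lower in juvenile RFH, with a median difference of -0.31 against 0.07 over all genes. In JUN, MYC and IER3 every juvenile RFH array was below every WT array, 42.9% of the 7 genes, where 9.53% of all genes separated in that direction and 35.8% in either.

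JUN had the largest of these differences, -0.77 ± 0.23 (SE, limma adjusted p = 0.199, 95% interval -1.28 to -0.26 before adjustment), 1.71-fold lower in juvenile RFH. MYC differed by -0.68 ± 0.20 (SE, adjusted p = 0.199, interval -1.12 to -0.23), and IER3 by -0.26 ± 0.13 (SE, adjusted p = 0.463, interval -0.56 to 0.04). ATF3 differed by -0.43 (adjusted p = 0.486, interval -0.95 to 0.09), FOS by -0.18 (adjusted p = 0.739, interval -0.57 to 0.21) and NR4A3 by -0.07 (adjusted p = 0.975, interval -1.11 to 0.98). The NR4A3 interval is the widest, and its spread in the fit includes the adult arrays, whose SD was 1.04. JUN passed when the fit weighted arrays by quality (adjusted p = 0.0251) or held only the juvenile arrays (adjusted p = 0.0259), and MYC passed with array weights (adjusted p = 0.0344). Without juvenile RFH replicate 2, the array with cardiac muscle transcripts, the JUN difference was -0.72 and that of MYC -0.51. In that setting ATF3 differed by -0.29, IER3 by -0.26, EGR1 by -0.17, FOS by -0.08 and NR4A3 by -0.02. The direction of NR4A3 was not stable, as it was 0.03 without juvenile WT replicate 2.

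The 3 EGR1 probe sets did not give 1 direction between the juvenile groups. The brightest differed by -0.31 (adjusted p = 0.65), the second by -1.20 ± 0.33 (SE, adjusted p = 0.182) with 9.66, 9.45 and 9.29 in WT against 8.69, 7.88 and 8.22 in juvenile RFH arrays, and the third by 0.33 (adjusted p = 0.447). None passed the threshold in limma. A statement on EGR1 between juvenile RFH and WT therefore rests on the probe set read.

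Arrays of 1 group differed among themselves in a way that the genes partly shared. The SD of the 7 genes had a median of 0.22 in the WT juveniles, 0.24 in the RFH juveniles and 0.30 in the adults, against 0.08, 0.11 and 0.20 over all genes. Among juvenile WT arrays, replicate 1 was highest for 5 of the 7 and replicate 3 lowest for 6. Among juvenile RFH arrays, replicate 2 was lowest for 5, and among adults replicate 2 was lowest for 4 and replicate 4 highest for 3. Such counts were not taken over all genes, so a shift of whole arrays and a shift shared by these genes cannot be told apart. Adult replicate 4 had the lowest neutrophil marker mean of the adults, 4.98 against 6.08 to 6.67, and its macrophage mean was 9.53. It also had the lowest T and B cell mean of the adults, 5.28, and the highest interstitial and fibroblast mean, 12.70. Whether marker levels go with those of the 7 genes among arrays of a group was not tested.

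After each group's mean was taken away, 17 of the 21 pairs of genes had a positive Pearson correlation over the 10 arrays, with a median of 0.29. ATF3 and FOS had the highest, 0.92, followed by IER3 and JUN at 0.82 and ATF3 and EGR1 at 0.73. NR4A3 ran against IER3 (-0.75) and JUN (-0.60), and in adult replicate 1 NR4A3 was 1.49 under its group mean while JUN was 0.54 over it. These are descriptions over arrays that share their labelling and normalization, and pairs of other genes were not set beside them. With the group means left in, the 15 pairs without JUN had correlations of 0.91 or more, and the 6 pairs with JUN lay between -0.06 and 0.27.

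**Figure D3:**
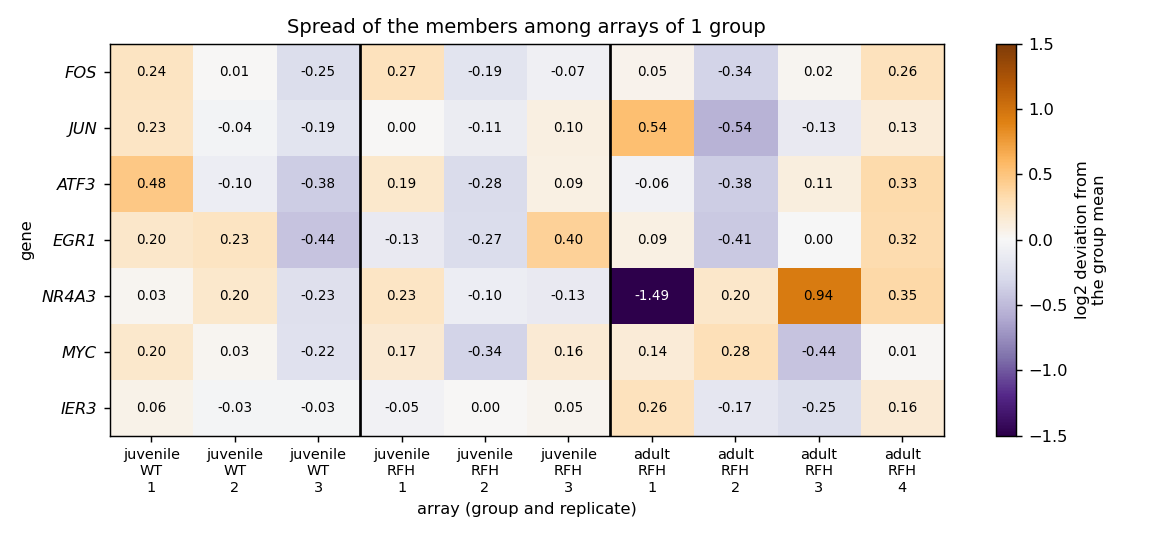
Deviation of each array from its group mean on the log2 scale (colour and printed value) for the 7 genes (rows) and 10 arrays (columns, parted by group). FOS and ATF3 vary in step across arrays, and the extreme values are those of NR4A3 in adult replicates 1 (-1.49) and 3 (0.94).

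By a fixed rule the genes most like the mean profile of the 7 over the 10 arrays were CD83 (Pearson r = 0.986), RASSF1 (0.985), PLK3 (0.983), CEBPB (0.980), ODC1 (0.980) and RGS2 (0.978). Each of these was higher in adults than in juvenile RFH arrays, so the step between ages enters each r, as do the shared labelling and normalization. CD83, a surface protein of activated dendritic and other immune cells, averaged 9.68 ± 0.33 in WT juveniles, 9.69 ± 0.09 in RFH juveniles (SD, n = 3 each) and 12.40 ± 0.10 in adults (SD, n = 4). Gene by gene, the nearest profile was that of ZFP36, a protein that destabilises messenger RNAs, for both FOS (0.970) and EGR1 (0.964), IFRD1 for NR4A3 (0.997), CD83 for ATF3 (0.987), HSPH1 for MYC (0.994), HBEGF for IER3 (0.994) and RSRC2 for JUN (0.937). RSRC2 had an adult minus juvenile RFH difference of 0.18. It was picked for its likeness to JUN, whose own difference was 0.41, so its small step follows from that choice.

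Partner genes were read from 7 lists of AP-1 partners, other immediate early genes, upstream signalling, the MYC network and textbook targets, 103 measured genes that are not members. In adult against juvenile RFH leaflets 55 rose and 3 fell (limma, adjusted p under 0.05 over all probe sets), with a median difference of 0.57. Over all genes 19.3% were called, with 11.4% up and 7.85% down. The lists were chosen with earlier results of these arrays known, so these calls describe the lists and are no independent support. Of 25 immediate early genes that are not transcription factors 22 rose and none fell, the other 3 missing the threshold, and the median was 1.39. Of 17 other immediate early transcription regulators 12 rose and 1 fell, and the median was 1.06.

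**Figure D4:**
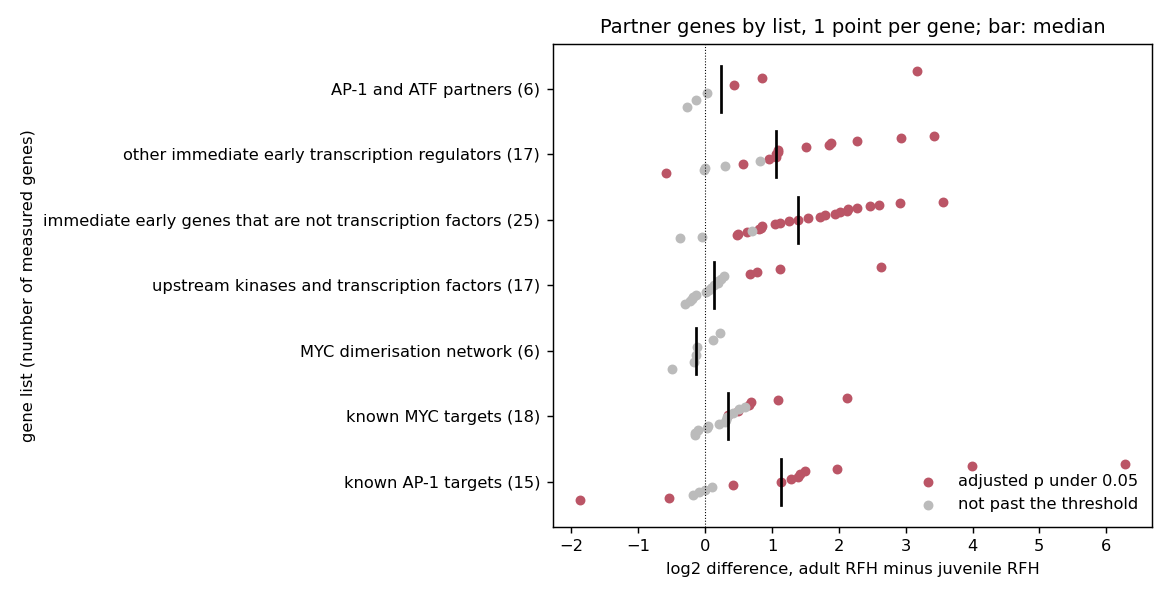
Log2 difference between adult and juvenile RFH arrays (horizontal axis) for the genes of each list (vertical axis, number of measured genes in brackets), 1 point per gene with red for an adjusted p under 0.05 and grey for the rest; the black bar is the list's median. The medians of the immediate early lists are 1.06 and 1.39, and that of the MYC dimerisation network is -0.13.

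Among the regulators, NFIL3, a bZIP repressor, rose by 2.94 ± 0.21 (SE, limma adjusted p = 2.39e-05), and CEBPB, a bZIP factor of the acute-phase response, rose by 1.51 ± 0.10 (adjusted p = 1.14e-05). The immediate early response genes IER2 and IER5 rose by 1.88 ± 0.15 and 1.85 ± 0.14, and the other probe sets of IER5 gave 1.52 (adjusted p = 0.00234) and 0.13, which did not pass. ID2, an inhibitor of helix-loop-helix factors, fell by 0.58 ± 0.16 (adjusted p = 0.0335). The ID2 call was lost without juvenile RFH replicate 1 (0.108) or 3 (0.136), without adult RFH replicate 1 (0.0692), 2 (0.0603) or 4 (0.0633), without juvenile WT replicate 3 (0.0526), and with the replicate block (0.0503).

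Among the other immediate early genes, HBEGF, a growth factor shed from the cell surface, rose by 2.91 ± 0.17 (SE, adjusted p = 5.78e-06), and SOCS3, the feedback inhibitor of cytokine receptors, rose by 2.61 ± 0.17. In juvenile RFH arrays SOCS3 was dim, 4.30 to 4.50, as was HBEGF, 5.85 to 6.21, so their folds depend on background. ODC1, the first enzyme of polyamine synthesis, rose by 2.13 ± 0.14 and by 1.56 with its other probe set. RGS2, which ends G protein signals, rose by 1.79 ± 0.14 with its brightest probe set, while its other two gave -0.27 (adjusted p = 0.192) and -0.49 (adjusted p = 0.0212).

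The AP-1 and ATF partners were thinly covered, 6 of 19 on the list, and JUNB, JUND and FOSB were not analysed here. FOSL2, a FOS relative (FRA-2), read 7.81, 7.98 and 7.96 in juvenile RFH and 10.48, 11.03, 11.87 and 10.94 in adult RFH arrays and rose by 3.16 ± 0.26 (SE, adjusted p = 5.38e-05), 8.96-fold. DDIT3 (CHOP), a bZIP factor of stress responses, rose by 0.85 ± 0.14 and ATF4, which acts upstream of it, by 0.44 ± 0.11 (adjusted p = 0.0183). ATF4 was lost without juvenile RFH replicate 1 (0.0722) or 2 (0.0541), and its other probe set gave 0.14. FOSL1, singled out after its values were seen, had 0.03 with its brightest probe set, 1.11 with another (adjusted p = 0.00232) and 0.08 with the third.

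Of 17 upstream kinases and factors 4 rose and none fell, and the median was 0.13. Of the 4, CREM and ETS2 are transcription factors. CREM, a cAMP-responsive bZIP factor whose short form ICER represses transcription, rose by 2.64 ± 0.22 (SE, adjusted p = 5.74e-05), and its other 3 probe sets gave 0.61 to 2.88. ETS2 rose by 1.12 ± 0.13, with 1.60 and 1.65 by its other two. The ribosomal S6 kinases RPS6KA3 and RPS6KA1 rose by 0.68 ± 0.15 (adjusted p = 0.0133) and 0.77 ± 0.22 (adjusted p = 0.035). RPS6KA3 was lost without juvenile RFH replicate 1 (0.0615). RPS6KA1 held only without adult RFH replicates 2, 3 or 4 among the arrays left out, with 0.108, 0.0746 and 0.096 without juvenile RFH replicates 1 to 3, 0.0775 without adult RFH replicate 1, and 0.054, 0.0542 and 0.0546 without juvenile WT replicates 1 to 3.

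None of the 6 measured genes of its dimerisation network passed in limma, and 1 had an unadjusted p under 0.05, where 34.5% of all genes did. It was MXI1, a MAX-binding antagonist of MYC (-0.49 ± 0.19, SE, adjusted p = 0.105). MAX itself was not analysed here. Of 18 textbook MYC targets 6 rose and none fell, with a median of 0.34. ODC1, above, was the largest, followed by the translation helicase EIF4A1 at 1.09 ± 0.14 (SE, adjusted p = 0.000886). LDHA, which makes lactate, rose by 0.69 ± 0.18 (adjusted p = 0.0251) and the ribosome biogenesis gene PPAN by 0.65 ± 0.15 (adjusted p = 0.0145). LDHA was lost without juvenile RFH replicates 1 to 3 (0.0869, 0.0583 and 0.0721) or adult RFH replicate 1 (0.0556). PPAN was lost without juvenile RFH replicate 2 (0.0547), and its other probe set gave 0.54 (adjusted p = 0.0614), which did not pass.

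Of 15 textbook AP-1 targets 9 rose and 2 fell, and the median was 1.14. IL6, an inflammatory cytokine, rose by 6.28 ± 0.25 (SE, adjusted p = 5.36e-07). CXCL8, which draws neutrophils, rose by 4.00 ± 0.54 (adjusted p = 0.00114). CXCL8 was 11.24 in adult replicate 1 against 8.34 to 9.06 in the others, and its difference was 3.37 without that array. IL6 and CXCL8 were dim in juvenile RFH arrays, 4.76 to 5.41 and 5.02 to 5.70, so both folds depend on background. PLAU, the plasminogen activator urokinase, rose by 1.50 ± 0.21, and TIMP1, which blocks metalloproteases, by 1.97 ± 0.19. MMP1, MMP3, MMP9 and MMP13, the collagenase, stromelysin and gelatinase genes often used as AP-1 readouts, gave 0.10, -0.18, -0.08 and 0.00 and did not pass. All 4 had group means under the array medians and were singled out after their values were seen. LOX, the collagen cross-linking enzyme, fell by 1.87 ± 0.15 (adjusted p = 4.32e-05), while its other probe set gave -0.06. VEGFA changed by -0.53 ± 0.14 (adjusted p = 0.0275) with its brightest probe set, but 1.23 and 0.98 with other probe sets, both past the threshold (adjusted p = 0.0029 and 0.011), so its direction rests on the probe set. Its call was also lost without adult RFH replicate 2 (0.0612) and without juvenile RFH replicates 2 (0.0828) and 3 (0.112).

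Between juvenile RFH and WT, 1 of the 103 partner genes passed, LOX, which was higher by 1.06 ± 0.16 (SE, limma adjusted p = 0.0485) in juvenile RFH with 11.09, 10.96 and 11.22 against 10.14, 10.21 and 9.76. That call was lost without any 1 of the 6 juvenile arrays (0.0848, 0.102 and 0.179 without RFH replicates 1 to 3, and 0.186, 0.165 and 0.11 without WT replicates 1 to 3), without adult RFH replicate 4 (0.0658) and with the replicate block (0.127). The other LOX probe set gave 0.18 between juvenile RFH and WT (limma adjusted p = 0.423). Over all lists 19 of the 103 genes had an unadjusted p under 0.05, where 15.1% of all genes did, so the lists lay near the background. KLF10, a zinc finger factor induced by TGF-beta, and GEM, a small GTPase, were lower in every juvenile RFH array than in every WT array, like JUN, with differences of -0.70 (adjusted p = 0.207) and -0.67 (adjusted p = 0.193) that did not pass. The lowest p of the other lists belonged to FOSL1 (0.23, adjusted p = 0.371), MEF2A (-0.23, 0.32), FBL (0.49, 0.287) and MYCBP (0.13, 0.754).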

How the data were processed

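Per the file headers and labels, the deposited table holds 1 value per probe set and array, and the log2 scale was read from the deposited values. The submitters' processing notes name R 2.15.2, and how background was corrected and arrays normalized is not given in the labels or headers. The fits leave out 124 control probe sets. Of the other 23999, 10069 carry 1 symbol, 198 several and 13732 none. The brightest of a gene's probe sets, by the mean over all arrays, stood for it. Group means were fitted to all 10 arrays with limma 3.58.1 in R 4.3.3 (lmFit, eBayes, no block), and p-values were adjusted by Benjamini-Hochberg over 23999 probe sets. Arrays carry no read depth, and the 3 or 4 per group limit the precision. The fit was tested on simulated data.

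The members and lists were chosen with earlier results of these arrays known. Text names the members, up to 4 called genes per list, direction and comparison with the smallest p, or else the gene with the smallest p, and the 6 nearest profiles and 1 per member by Pearson r. Genes outside this rule are marked where named. Alternatives were another scaling (quantile, median, cyclic loess), a filter or a floor of 4 on low values, 2 groups only, another variance prior, array weights, a 3' to 5' covariate, the replicate block, a fold threshold, averaging all probe sets of a gene, and leaving out each array.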

Additional observations from a re-analysis of the deposited data

Results flagged for a closer look

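Among 4 arrays, an array was taken to stand apart where its gap to the nearest was a larger share of the range than Dixon's 95% criterion allows, which chance passes in about 1 of 20 groups. Of 43 probe sets of members and named genes checked in the adult RFH group, 2 passed. The dimmer NR4A3 probe set read 7.62 in adult RFH replicate 1, where the others lay at 9.05 to 9.16 (gap 0.925 of the range). RGS2 read 12.84 in adult RFH replicate 2, where the others lay at 13.06 to 13.07 (gap 0.964 of the range).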

How the results depend on the processing

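The median difference of the 7 genes between adult and juvenile RFH was 2.40 to 2.58 with each array left out and 2.44 to 2.53 under the other alternatives. None of the 7 reversed in this comparison. Between juvenile RFH and WT, where 0 of the 7 were called, 2 were with array weights and 1 with only the 2 groups compared, and 0 with each array left out. Of the partner genes, 58 were called between adult and juvenile RFH, 43 to 60 with an array left out and 39 when a difference of at least 1 was asked as well. Between juvenile RFH and WT the 1 partner call became 6 with array weights and 10 with only the 2 groups compared. It became 0 with dim probe sets left out, with the floor, with the replicate block and with all probe sets of a gene averaged, and 0 to 1 with an array left out. With its probe sets averaged VEGFA was 0.38, reversed. The cause was not tested. RGS2 was 0.34 and no longer called in that setting. Calls of ATF4, ID2, RPS6KA1, LDHA and VEGFA were also lost under some other settings, and those of KLF10, GEM and FBL between juveniles were gained with array weights and with 2 groups only. No pairing by replicate number is stated in the labels. Same-numbered arrays had correlations of deviations from group means of -0.16 to 0.19. Of 18 arrays and partner groups, 4 gave the best match to the own number. With 3 or 4 arrays per group this check cannot exclude a pairing. With the replicate block, which leaves adult RFH replicate 4 without weight in the comparison, the median was 2.44 and 55 partner genes were called. Among the genes named, juvenile RFH levels of NR4A3, ATF3, SOCS3, HBEGF, IL6 and CXCL8 lay near or under the array medians. Their folds therefore depend on background, by how much was not tested.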
